A study of Mus musculus with 6 samples.

Results

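The genes described here encode the proteins of the cytosolic and of the mitochondrial ribosome, measured in mouse heart tissue. They were chosen by name: a gene was a member when its symbol was Rpl, Rps, Mrpl or Mrps followed directly by a number, leaving out pseudogene symbols with -ps and the kinases Rps6ka, Rps6kb, Rps6kc and Rps6kl. Among the 18193 genes with a probe set (a group of short probes on the array) that carried 1 symbol, 123 were members: 47 cytosolic (24 of the large and 23 of the small subunit) and 76 mitochondrial (47 large and 29 small). They had 258 such probe sets, and each gene was represented by its probe set of highest mean signal. The subunit of a member was taken from its symbol alone. A further 32 genes with names of this kind, 30 of them cytosolic, had only probe sets that carry several symbols and were not members, so the cytosolic set holds only some of the proteins of that ribosome. The naming rule also takes in Rps19bp1, which encodes a protein that binds RPS19 and is not itself a ribosomal protein, and Rps4l, which RefSeq lists as a transcribed pseudogene.

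Hearts of 3 groups of male mice on a B6 background were compared at 2 months of age, with 2 Affymetrix arrays in each group. The RKIP-transgenic mice expressed RKIP, the Raf kinase inhibitor protein, from the alpha-MHC promoter, which is active in heart muscle cells. The GRK-Inh-transgenic mice expressed a peptide that inhibits G-protein-coupled receptor kinases in the myocardium, and the B6 control mice were wild type. Whether a group's arrays hold RNA of different mice is not stated, so each p-value measures the spread between arrays, which may be technical, and each transgene is represented by 1 line. Whole heart tissue was used, and in such tissue fewer cells of a type and less RNA per cell cannot be told apart.

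A ribosome is built from a large and a small subunit, each made of ribosomal RNA and many proteins that are needed in matched amounts. The cytosolic ribosome translates messages from the nucleus, and its own protein messages begin with a run of pyrimidines through which mTOR signalling and the RNA-binding protein LARP1 control their translation. The mitochondrial ribosome translates the few membrane proteins of the respiratory chain that mitochondrial DNA encodes, while all of its own proteins are encoded in the nucleus; heart muscle is rich in mitochondria. RKIP restrains the Raf kinase, and in its phosphorylated form it binds and inhibits GRK2, which is why a line with a GRK inhibitor is a natural comparison.

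Promoters of ribosomal protein genes are known for binding sites of ETS family factors such as GABP, and those of mitochondrial ribosomal proteins also for NRF1. RefSeq promoters (GRCm38.p6, 250 bases before to 50 bases after a gene's start) were matched by symbol for 108 of the 123 members, which gave 122 promoters. The letters CCGGAAG, the core of an ETS site, stood on either strand in 38.8% of the cytosolic (19 of 49) and 34.2% of the mitochondrial promoters (25 of 73), against 16.8% of promoters of all genes tested and 8.86% of all promoters. An NRF1 core, GCATGCGC, stood in 11% of the mitochondrial and 4.08% of the cytosolic promoters, against 5.03% over the genes tested and 2.71% over all promoters. A YY1 motif, AAGATGGCG, whose start can overlap the end of the ETS core, stood in 11% of the mitochondrial and 6.12% of the cytosolic promoters, against 2.96% and 1.40%. The letters TATAAA stood in 6.85% and 10.2%, against 7.56% and 13.6%. A match is a run of letters, and binding was not measured. Among members that passed the test in any comparison, the ETS core stood in 35.7% of the cytosolic (5 of 14) and 31.2% of the mitochondrial promoters (5 of 16).

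The 60 bases before the start are shown for Mrpl12, which had the lowest adjusted p of all members and no match in this stretch, and for the 5 members that passed the test and have an ETS core there. The capitals mark the core, and each sequence is on the strand of its gene. Coordinates are those of GRCm38.p6, with Mrpl12 at chr11:120484577-120484636 (plus strand), Mrpl34 at chr8:71464866-71464925 (plus), Mrps22 at chr9:98601680-98601739 (minus), Mrpl27 at chr11:94653731-94653790 (plus), Rps3a1 at chr3:86142669-86142728 (minus) and Rpl37 at chr15:5116553-5116612 (plus).
Mrpl12: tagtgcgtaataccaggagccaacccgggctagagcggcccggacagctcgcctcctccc
Mrpl34: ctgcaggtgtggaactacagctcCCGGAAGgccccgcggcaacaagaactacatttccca
Mrps22: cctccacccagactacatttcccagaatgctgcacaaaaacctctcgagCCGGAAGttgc
Mrpl27: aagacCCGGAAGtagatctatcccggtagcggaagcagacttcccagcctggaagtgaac
Rps3a1: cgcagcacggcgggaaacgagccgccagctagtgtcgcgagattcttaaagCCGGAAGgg
Rpl37: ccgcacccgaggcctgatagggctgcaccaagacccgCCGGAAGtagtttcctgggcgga
The core ended 3 bases before the start in Rps3a1, 5 in Mrps22, 17 in Rpl37, 31 in Mrpl34 and 49 in Mrpl27. The 5 genes with this core did not move alike: as given next, Mrpl34, Mrps22, Mrpl27 and Rps3a1 fell in RKIP-transgenic hearts and Rpl37 rose in GRK-Inh-transgenic hearts.

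Every array had been scaled by the authors to a 2% trimmed mean signal of 300.002, and array medians lay between 50.3 and 55. After a filter on dim probe sets, 120 members were tested among 11254 genes: 44 cytosolic (22 of each subunit) and all 76 mitochondrial genes. The members not tested were Rpl12, Rpl39l and Rps16, whose only single-symbol probe sets read 30.6 to 68.5, 14.1 to 88.1 and 0.605 to 1.85. These low readings belong to the probe sets and are no measure of the gene, since 15 cytosolic members also have a probe set that carries several symbols and was not used. Most members were bright: the highest mean signal was 31347 for Rps29 among the cytosolic and 13965 for Mrpl42 among the mitochondrial genes. The lowest among those tested were 86.3 for Rps27 and 270.0 for Mrps5. Pebp1, the mouse gene of RKIP, read 9102 and 9140 in RKIP-transgenic, 9079 and 9296 in GRK-Inh-transgenic and 9292 and 8766 in B6 control hearts and passed the test in no comparison; the labels do not say whether its probe set can read the transgene.

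The levels of both sets were close on all 6 arrays. No member changed by 2-fold or more in any comparison, whereas 42, 70 and 45 of all genes tested did so in RKIP-transgenic hearts against control, GRK-Inh-transgenic hearts against control, and between the lines. The median log2 level of the 44 cytosolic genes was 13.31 and 13.22 on the RKIP-transgenic, 13.27 and 13.26 on the GRK-Inh-transgenic and 13.31 on both B6 control arrays. The median of the 76 mitochondrial genes was 10.87 and 10.80, 10.91 and 10.90, and 10.91 and 10.88. The lower values of the RKIP-transgenic group came mostly from its array 2, and its array 1 equalled the controls in the cytosolic set. The arrays of that group also differed more from each other in this set than those of the other groups: the SD over genes of the log2 difference between replicate arrays was 0.175, against 0.0991 in the GRK-Inh-transgenic and 0.0905 in the control pair. Not all genes shared in this. Rps27, a dim gene, read 64.6 and 139 on the RKIP-transgenic arrays and Rps15 read 9940 and 7977, while Rps14 read 22016 and 22011. Over all genes tested the 3 replicate pairs were alike, at 0.209, 0.206 and 0.207.

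**Figure D1:**
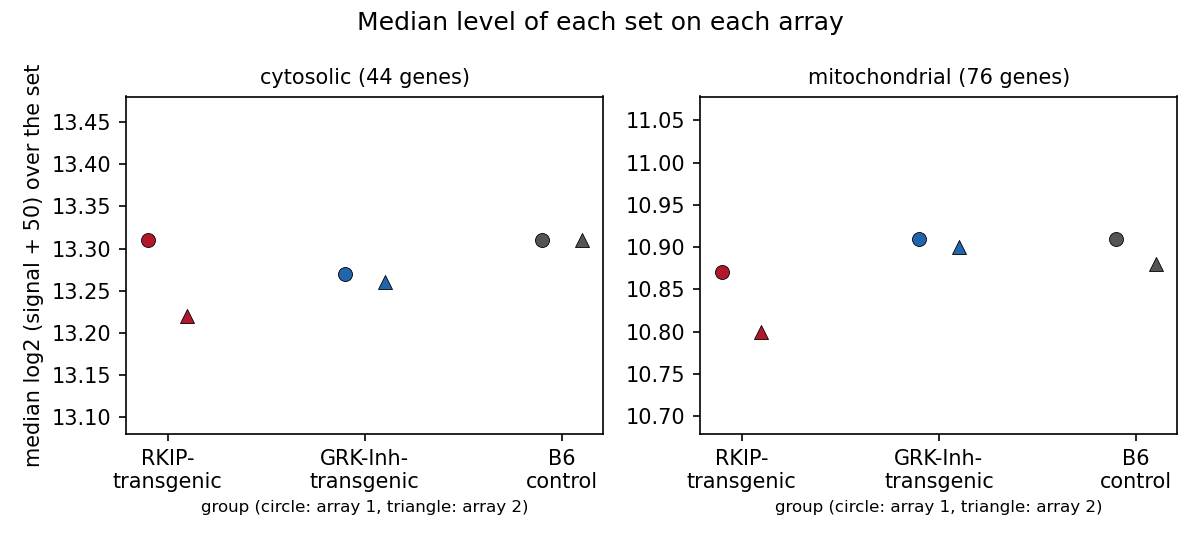
Median of log2 (signal + 50) over the 44 cytosolic (left) and 76 mitochondrial (right) ribosomal protein genes tested, one point per array (circle array 1, triangle array 2), by group; the vertical axes do not start at 0. All arrays lie within 13.22 to 13.31 and 10.80 to 10.91, and RKIP-transgenic array 2 is the lowest in each set.

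Most members stayed within a narrow band. A log2 fold change between -0.25 and 0.25 was found for 95.5% of the cytosolic and 92.1% of the mitochondrial genes in RKIP-transgenic against control hearts, for 88.6% and 98.7% in GRK-Inh-transgenic against control hearts, and for 95.5% and 96.1% between the lines. The same share over all genes tested was 75.9%, 72.2% and 76.8%. The members were also measured with smaller error, with a median SE of a log2 fold change of 0.042 in the cytosolic and 0.066 in the mitochondrial set, against 0.11 over all genes, so that small changes could pass the test. In all, 12 of 44 cytosolic (27.3%) and 16 of 76 mitochondrial genes (21.1%) passed in at least 1 comparison, against 20.8% of all genes tested. All fold changes are on the scale of log2(signal + 50).

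**Figure D2:**
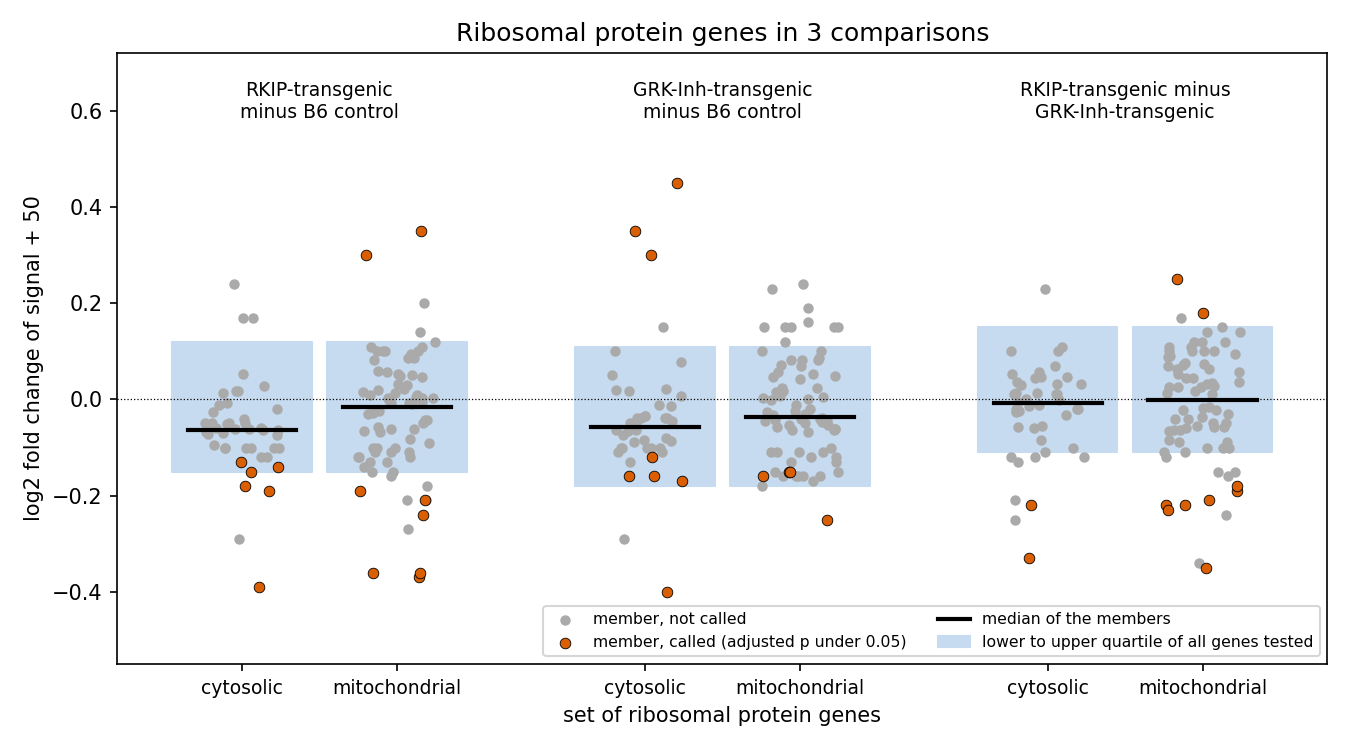
Log2 fold change of signal + 50 for each ribosomal protein gene tested (points; orange where the adjusted p was under 0.05), by set and comparison, with the median of the members (bar) and the range from the lower to the upper quartile of all genes tested (blue). The cytosolic medians of -0.062 and -0.058 against B6 control lie inside the blue band, as do all other medians, and no point lies beyond -0.40 or 0.45.

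RKIP-transgenic hearts had lower messages of 6 cytosolic and 6 mitochondrial ribosomal protein genes than B6 control hearts, and higher messages of 2 mitochondrial ones. The falls were small, from 0.13 to 0.39 on the log2 scale. The largest were those of Rps4l in the cytosolic and Mrpl12, Mrpl34 and Mrps22 in the mitochondrial set. The test is limma's moderated test with Benjamini-Hochberg adjustment over all genes, at an adjusted p under 0.05; it called 10.8% of all genes, with 5.32% rising and 5.51% falling. Of the cytosolic genes 13.6% were called (6 of 44) and of the mitochondrial genes 10.5% (8 of 76), so the share of calls in either set was near that of all genes. The medians were -0.062 and -0.017, against -0.017 for all genes; 36 of the 44 cytosolic genes lay below 0 and 8 above. The counts moved with single arrays: the cytosolic count was 1 without RKIP-transgenic array 1, 3 without its array 2, 1 without B6 control array 1 and 2 without control array 2, and the mitochondrial count was 4, 4, 4 and 3. A fit whose error estimate does not follow the signal called none of either set, with 3 and 10 genes at an unadjusted p under 0.05, against 11 and 17 with the fit used.

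All 6 cytosolic genes that fell in RKIP-transgenic hearts carry small subunit names (Rps), although one of them, Rps4l, is listed as a transcribed pseudogene. Of the 22 large subunit genes none was called by limma on its brightest probe set (4 at an unadjusted p under 0.05, lowest adjusted p 0.0842). This depended on the probe set in Rpl7, a large subunit gene. Its brightest one gave -0.02, but a dimmer one (mean signal 8401) fell by 0.20 when limma took each probe set separately (adjusted p = 0.0199). The medians of the small and large subunit genes were -0.085 and -0.049; the difference between the subunits was not tested. Rps4x, the X-linked gene of a small subunit protein, read 13757 and 13983 in RKIP-transgenic, 14350 and 13905 in GRK-Inh-transgenic and 15564 and 15949 in control hearts. Both lines lay below both controls, with changes of -0.18 ± 0.035 (SE, adjusted p = 0.00803) and -0.16 ± 0.035 (adjusted p = 0.0141). With the mean over its probe sets, which takes in one with a mean signal of 12.8, these were -0.029 and 0.025 and neither was called. Its relative Rps4l read 571 and 684, 617 and 623, and 818 and 855, and fell by 0.39 (SE 0.092, adjusted p = 0.021) and by 0.40 (adjusted p = 0.0153). Rps27l, a paralog of Rps27 known as a p53 target, read 5706 and 5819, 5809 and 5870, and 6729 and 6431, with changes of -0.19 ± 0.042 (adjusted p = 0.0169) and -0.17 ± 0.042 (adjusted p = 0.0228). In these 3 genes the lines overlapped each other, and neither overlapped the controls. Called genes were chosen for naming among those whose compared groups do not overlap, so the separation from the controls adds no support. The 3 probe sets of Rps27l all lay below control in both lines.

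The other called genes of the small subunit had smaller fold changes. Rps2 read 19631 and 19323 in RKIP-transgenic and 21298 and 21430 in control hearts, a fall of 0.13 (SE 0.031, adjusted p = 0.0205). Rps3a1 read 17141 and 17109 against 18995 and 18650, a fall of 0.14 (adjusted p = 0.0271). Rps19, the gene most often mutated in Diamond-Blackfan anaemia, read 6249 and 6510 against 7141 and 6995 and fell by 0.15 (adjusted p = 0.0491), close to the threshold. For these 3 genes the GRK-Inh-transgenic arrays lay between the other groups or among the controls, and their values of -0.074, -0.034 and -0.063 did not pass. Rps6, whose protein is the classic substrate of the S6 kinases, read 737 and 840 against 871 and 822 and did not pass (-0.10, adjusted p = 0.505).

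**Figure D3:**
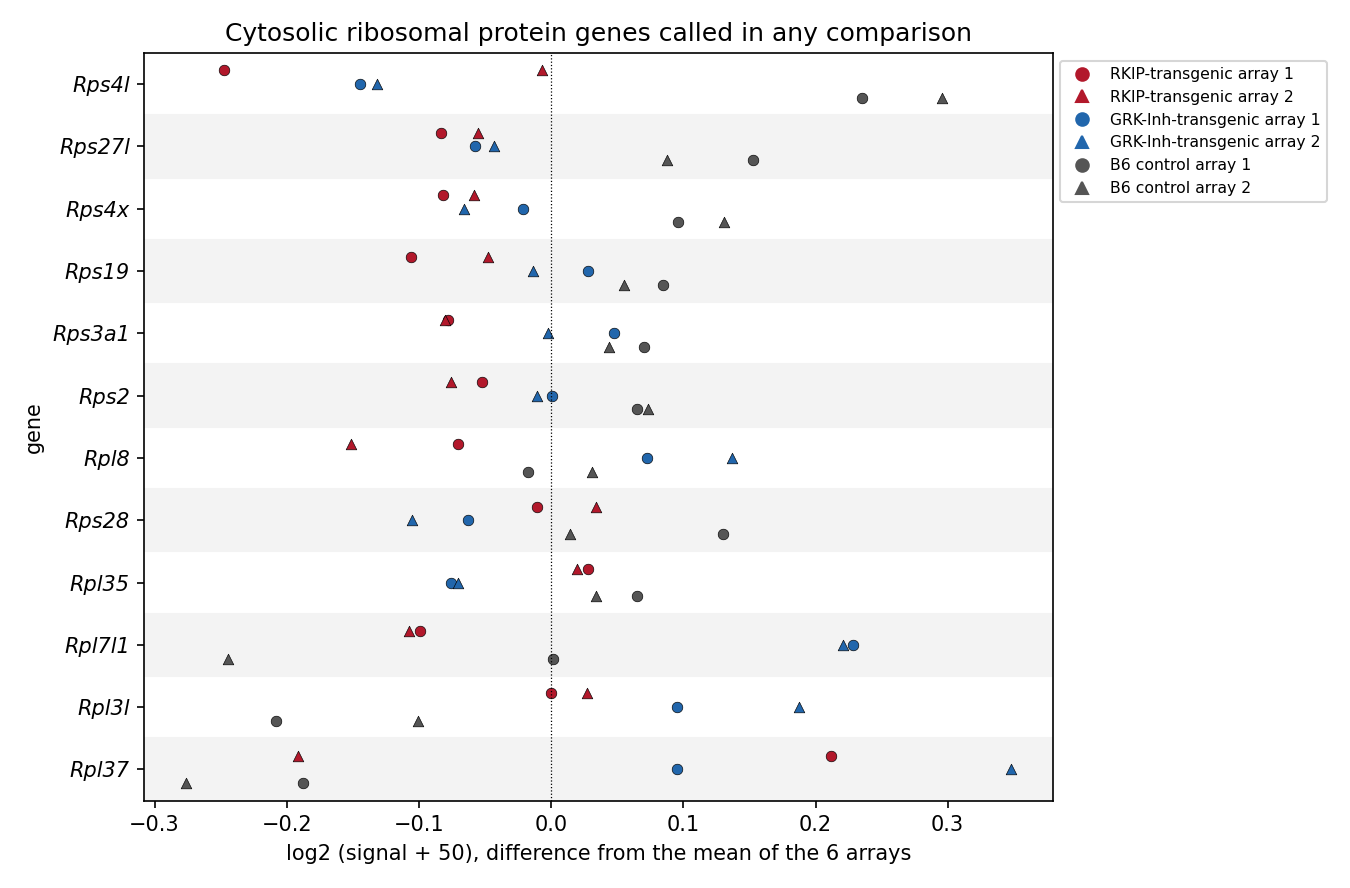
The 12 cytosolic ribosomal protein genes called in any comparison, with log2 (signal + 50) on each array minus the gene's mean over the 6 arrays (horizontal axis); red RKIP-transgenic, blue GRK-Inh-transgenic, grey B6 control, circles array 1 and triangles array 2. In Rps4l, Rps27l and Rps4x both lines lie to the left of the controls, and in Rpl3l they lie to the right.

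In the mitochondrial set, Mrpl12 carried the clearest change of any member. Its protein is the stalk protein of the large subunit, which recruits translation factors and has also been found bound to the mitochondrial RNA polymerase. It read 4425 and 4454 in RKIP-transgenic, 5131 and 5229 in GRK-Inh-transgenic and 5708 and 5827 in control hearts. The 3 groups did not overlap, and they were ordered with RKIP-transgenic lowest and control highest. The change was -0.37 ± 0.042 (adjusted p = 0.000282) in RKIP-transgenic and -0.15 ± 0.042 (adjusted p = 0.0355) in GRK-Inh-transgenic hearts. Mrpl11 and Mrpl1, also of the large subunit, did not pass in RKIP-transgenic hearts, with values of 0.094 (adjusted p = 0.435) and -0.048 (adjusted p = 0.741).

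Mrpl34, a large subunit protein, read 1440 and 1531 in RKIP-transgenic, 1563 and 1631 in GRK-Inh-transgenic and 1969 and 1862 in control hearts. It fell by 0.36 (SE 0.063, adjusted p = 0.00479) and by 0.25 (adjusted p = 0.0213), both lines lying below the controls. A dimmer probe set of Mrpl34, with a mean signal of 99.8, did not show this (-0.022 and 0.21, neither called). Mrps22, a small subunit protein whose gene is mutated in a human mitochondrial disease with cardiomyopathy, read 846 and 821, 1089 and 1067, and 1055 and 1105. It fell by 0.36 (SE 0.068, adjusted p = 0.00773) in RKIP-transgenic hearts, while the GRK-Inh-transgenic arrays lay among the controls (-0.002, adjusted p = 0.989). Mrpl12 and Mrpl34 in RKIP-transgenic against control hearts were the only calls of members that were kept when any 1 of the 6 arrays was left out.

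The remaining mitochondrial calls in RKIP-transgenic hearts were smaller or nearer the threshold. Mrpl27 read 2143 and 2089 against 2480 and 2521 in control hearts (-0.24 ± 0.055, adjusted p = 0.0203). Mrpl18 read 3129 and 3282 against 3708 and 3746 (-0.21 ± 0.048, adjusted p = 0.0169). Mrpl41 read 4600 and 4629 against 5216 and 5356 (-0.19 ± 0.042, adjusted p = 0.015), and its other bright probe set gave -0.14, which did not pass. The RKIP-transgenic and control arrays did not overlap in any of these large subunit genes, which was a condition for naming them. Mrps10 and Mrps18b, both of the small subunit, rose: Mrps10 read 1143 and 1093 against 867 and 929 (0.30 ± 0.070, adjusted p = 0.0197), and Mrps18b read 474 and 542 against 382 and 392 (0.35 ± 0.10, adjusted p = 0.0488). Mrps18b has the paralogs Mrps18a and Mrps18c, which are also proteins of the mitochondrial ribosome; their values of 0.030 and 0.10 did not pass.

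**Figure D4:**
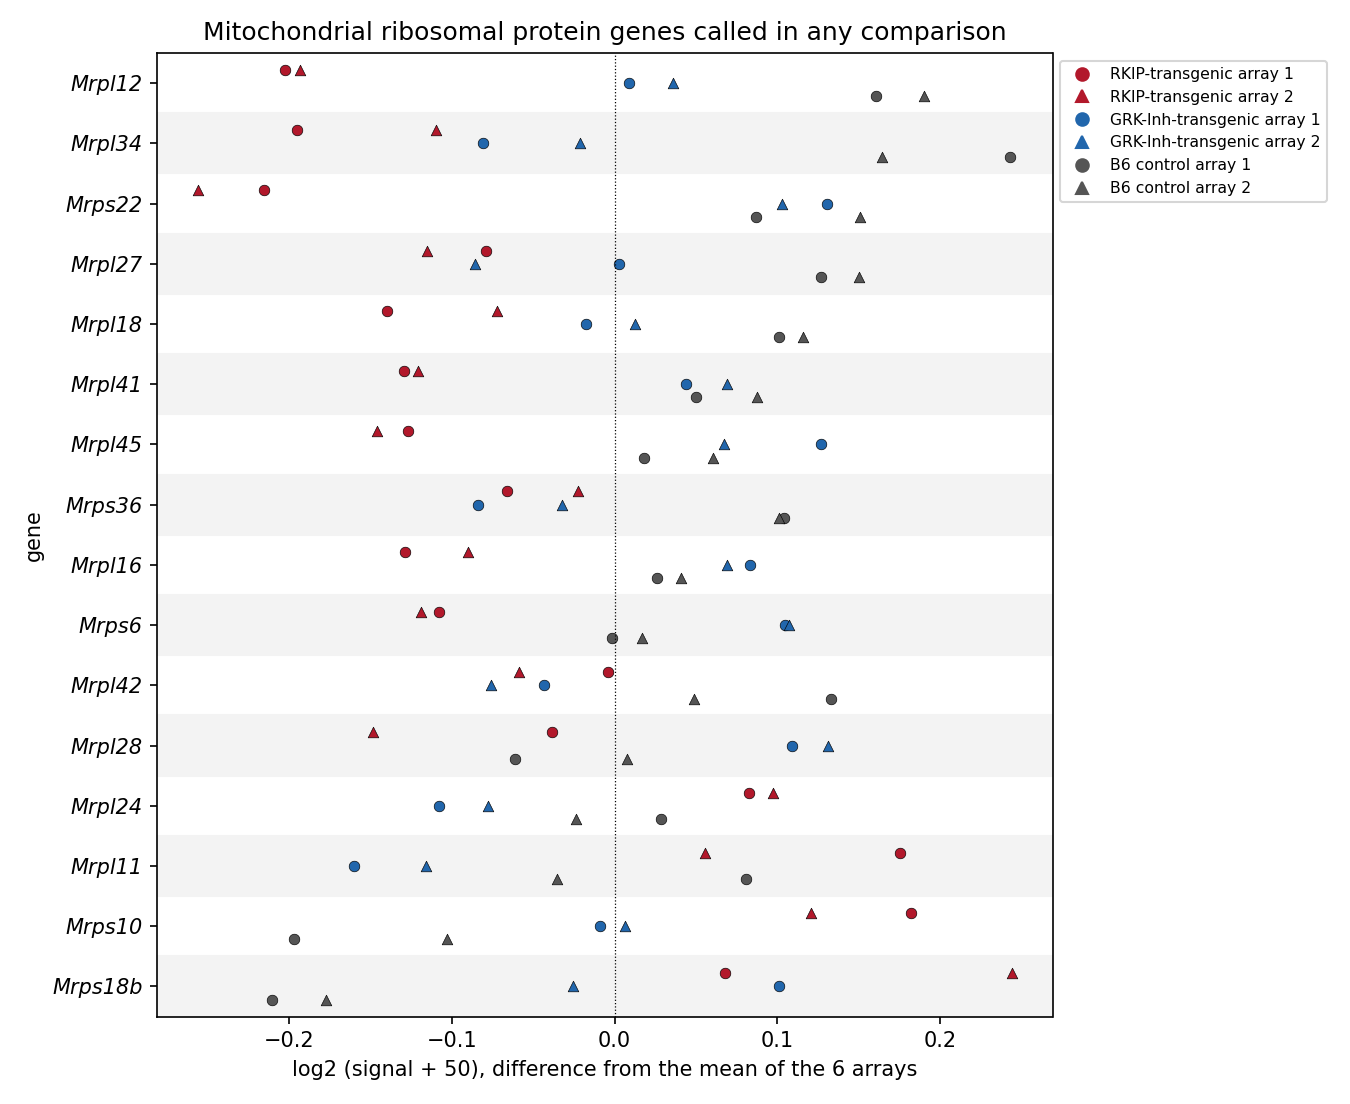
The 16 mitochondrial ribosomal protein genes called in any comparison, with log2 (signal + 50) on each array minus the gene's mean over the 6 arrays (horizontal axis); red RKIP-transgenic, blue GRK-Inh-transgenic, grey B6 control, circles array 1 and triangles array 2. In Mrpl12 the 3 groups are separate. The RKIP-transgenic arrays lie apart from the other 4 in several genes, among them Mrps22, Mrpl41, Mrpl45 and Mrpl16. In Mrps10 and Mrps18b they lie to the right of the controls.

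GRK-Inh-transgenic hearts had higher messages of 3 large subunit genes of the cytosolic ribosome, Rpl3l, Rpl7l1 and Rpl37, and lower messages of 5 other cytosolic and 4 mitochondrial genes than control hearts. Over all genes 13.1% were called in this comparison, 5.86% rising and 7.27% falling. Of the cytosolic genes 18.2% were called (8 of 44) and of the mitochondrial genes 5.26% (4 of 76), the latter a smaller share than that of all genes. The medians were -0.058 and -0.036, against -0.031 over all genes, and 33 of the 44 cytosolic genes lay below 0. With the arrays shifted to one median the split changed: 3 cytosolic genes rose and 1 fell, and 1 mitochondrial gene rose and none fell (limma, 9 and 16 genes at an unadjusted p under 0.05). Without GRK-Inh-transgenic array 2 no member of either set was called (11 and 8 at an unadjusted p under 0.05). The cytosolic count was 3 without GRK-Inh-transgenic array 1 or either control array, and the mitochondrial count was 0 without GRK-Inh-transgenic array 1 (10 at an unadjusted p under 0.05), 0 without control array 1 (also 10) and 2 without control array 2. With an error estimate that does not follow the signal, limma called none (5 and 4 genes at an unadjusted p under 0.05).

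Rpl3l is the striated muscle paralog of Rpl3, whose protein sits near the centre where peptide bonds are made. It read 3477 and 3711 in GRK-Inh-transgenic, 3252 and 3315 in RKIP-transgenic and 2808 and 3029 in control hearts. The groups did not overlap; the rise was 0.30 ± 0.056 (adjusted p = 0.00515) in GRK-Inh-transgenic hearts, and the value of 0.17 in RKIP-transgenic hearts did not pass (adjusted p = 0.0842). Rpl3 itself had no single-symbol probe set here. Rpl7l1, a paralog of Rpl7, read 855 and 850 in GRK-Inh-transgenic, 671 and 667 in RKIP-transgenic and 723 and 602 in control hearts, a rise of 0.35 ± 0.091 (adjusted p = 0.0295) in GRK-Inh-transgenic hearts. Its other probe sets gave 0.11 and 0.16 and did not pass. The brightest probe set of Rpl7 did not pass (-0.089, adjusted p = 0.20), but when all probe sets were tested one by one, another bright one of Rpl7 did so in both lines (-0.17, adjusted p = 0.0278, and -0.20, adjusted p = 0.0199, in RKIP-transgenic hearts). Rpl37 read 927 and 1114 against 753 and 705 and rose by 0.45 ± 0.13 (adjusted p = 0.0371), with RKIP-transgenic arrays far apart at 1009 and 751. Its only single-symbol probe set had a mean signal of 876 and a name that marks shared probes. The call of Rpl37 was lost with no filter.

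The cytosolic genes that fell in GRK-Inh-transgenic hearts were Rps4l, Rps4x and Rps27l, given above, with Rps28 and Rpl35. Rps28 read 18076 and 17551 against 20670 and 19074 in control hearts (-0.16 ± 0.042, adjusted p = 0.0333). Rpl35 read 10969 and 11009 against 12092 and 11837 (-0.12 ± 0.035, adjusted p = 0.0432), and none of its other probe sets passed. The paralogs Rpl22 and Rpl22l1, which regulate each other's level, did not pass in either line (0.0063 and -0.081 in GRK-Inh-transgenic, -0.049 and 0.028 in RKIP-transgenic hearts). In the mitochondrial set Mrpl42 read 13534 and 13229 against 15299 and 14428 (-0.15 ± 0.040, adjusted p = 0.0319). Mrps36, whose product is now known mainly as a subunit of the 2-oxoglutarate dehydrogenase complex, read 3621 and 3754 against 4132 and 4123 (-0.16 ± 0.046, adjusted p = 0.0447). With Mrpl12 and Mrpl34 these made up the 4 mitochondrial genes that fell.

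The 2 comparisons with control share the B6 control arrays, so their results are not independent. A control array that reads high would push a gene down in both, and this was not tested. Rps27l, Rps4l, Rps4x, Mrpl12 and Mrpl34 were called in both comparisons, with the values given above.

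Set directly against GRK-Inh-transgenic hearts, RKIP-transgenic hearts had lower messages of 2 cytosolic and 7 mitochondrial ribosomal protein genes and higher messages of 2 mitochondrial ones. In this comparison 8.82% of all genes were called, 4.47% higher and 4.35% lower in the RKIP-transgenic group. The members' shares were 4.55% (2 of 44) and 11.8% (9 of 76), with medians of -0.0081 and -0.0016 against 0.021 for all genes. Rpl8, of the large cytosolic subunit, read 8047 and 7603 in RKIP-transgenic, 8888 and 9297 in GRK-Inh-transgenic and 8349 and 8635 in control hearts, a difference of -0.22 ± 0.044 (adjusted p = 0.0132). The controls lay between the lines. Rpl7l1 differed by -0.33 ± 0.091 (adjusted p = 0.0497). The cytosolic count was 1 without GRK-Inh-transgenic array 1, 0 without its array 2 and 0 without RKIP-transgenic array 2 (5 and 3 genes at an unadjusted p under 0.05 in limma), and the mitochondrial count was 2, 1 and 1, and 2 without RKIP-transgenic array 1. With an error estimate that does not follow the signal, limma called none (2 and 10 at an unadjusted p under 0.05).

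Mrps22 had the largest difference between the lines among the members called (-0.35 ± 0.068, adjusted p = 0.00928), and Mrpl45 was also lower in RKIP-transgenic hearts (-0.23, adjusted p = 0.0317); its protein lies at the exit tunnel beside the inner membrane. Mrpl45 read 1543 and 1522 in RKIP-transgenic, 1850 and 1773 in GRK-Inh-transgenic and 1712 and 1764 in control hearts. Mrpl12 differed by -0.22 ± 0.042 (adjusted p = 0.00891), so its fall was larger in RKIP-transgenic hearts. Mrps6 read 1658 and 1645 against 1930 and 1933 (-0.22, adjusted p = 0.0328), but its other probe set gave -0.07. Mrpl28, Mrpl16 and Mrpl41 were also lower, with differences of -0.21, -0.19 and -0.18. Mrpl41 differed by only -0.04 in its other bright probe set, and the other probe sets of Mrpl28 gave -0.13 and 0.019, neither called. Mrpl11, at the base of the stalk, read 1808 and 1660 against 1422 and 1468 and was higher in RKIP-transgenic hearts (0.25 ± 0.068, adjusted p = 0.0432), opposite to Mrpl12. Mrpl24 read 2917 and 2947 against 2550 and 2605 and was also higher (0.18 ± 0.050, adjusted p = 0.0476). In these genes the arrays of the lines did not overlap, which was a condition for choosing called genes to name.

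The genes of translation factors, ribosome assembly and mitochondrial expression were counted by list. Of 26 initiation factor genes tested, 9 rose and 1 fell in RKIP-transgenic hearts, against 5.32% and 5.51% of all genes, and their median change was 0.15 against -0.017. Eif4e, which binds the cap of a message, read 3537 and 3555 against 2684 and 2497 in control hearts and rose by 0.45 (SE 0.073, adjusted p = 0.00333). Eif5b, which joins the subunits, read 1216 and 1220 against 834 and 982 and rose by 0.41 (adjusted p = 0.00886). The others that rose were Eif3a (0.38), Eif4b (0.35), Eif3c (0.23), Eif4a2 (0.21), Eif5 (0.21), Eif3e (0.17) and Eif4ebp1 (0.19), the last encoding an inhibitor of Eif4e. Pabpc1, the poly(A)-binding protein, read 6010 and 5713 against 7752 on both control arrays and fell by 0.40 (SE 0.043, adjusted p = 0.000192). Without probe sets whose names mark shared probes, its value was 0.035, and with the mean over its probe sets -0.18, neither called. With an error estimate that does not follow the signal, the calls of Eif4e, Eif5b, Eif3a, Eif3c, Eif5, Eif4ebp1 and Pabpc1 in RKIP-transgenic hearts were lost. Those of Eif5 and Eif4ebp1 were also lost with the mean over probe sets and without probe sets whose names mark shared probes.

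In GRK-Inh-transgenic hearts 4 of the 26 initiation factor genes rose (Eif3a 0.54, Eif5 0.37, Eif5b 0.34 and Eif4a2 0.14) and Pabpc1 fell by 0.27. The shares of all genes that rose and fell were 5.32% and 5.51% in RKIP-transgenic hearts, and 5.86% and 7.27% in GRK-Inh-transgenic hearts. The value of Eif5 was -0.0028 in this line without probe sets whose names mark shared probes, and the call of Pabpc1 was lost with that choice and with the mean over probe sets (-0.26 in both). With an error estimate that does not follow the signal, Eif3a stayed called in this line, and Eif5, Eif5b and Pabpc1 did not. Among 8 elongation factor genes, Eef1a1, which brings tRNA to the ribosome, fell in both lines. It read 13390 and 13488 in RKIP-transgenic, 13143 and 13296 in GRK-Inh-transgenic and 16070 and 16110 in control hearts, with changes of -0.26 ± 0.033 (adjusted p = 0.00068) and -0.28 ± 0.033 (adjusted p = 0.000279). Neither change was called with an error estimate that does not follow the signal. Eef2k, the kinase that slows elongation, rose in RKIP-transgenic hearts (0.29, adjusted p = 0.0336) and differed between the lines by 0.46 (adjusted p = 0.00358). Both calls of Eef2k were lost without probe sets whose names mark shared probes, and the rise also with the mean over its probe sets. Both were lost, too, with an error estimate that does not follow the signal. Fau, which encodes the small subunit protein RPS30 fused to a ubiquitin-like domain and falls outside the naming rule, read 9282 and 9286 in GRK-Inh-transgenic and 10838 and 10824 in control hearts and fell by 0.22 (SE 0.036, adjusted p = 0.00206). The call of Fau was lost with an error estimate that does not follow the signal. The other 3 cytosolic genes outside the naming rule, Rplp0, Rplp2 and Rpsa, did not pass in any comparison. Larp1 did not pass either (0.00063 and 0.18).

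Assembly factors of the cytosolic ribosome that were called against control all rose. Of 50 tested, Gnl2, Wdr12 and Sbds rose in RKIP-transgenic hearts (0.35, 0.39 and 0.28), and Nop58, Gnl3, Wdr12 and Tsr1 in GRK-Inh-transgenic hearts (0.39, 0.38, 0.36 and 0.30). That is 3 and 4 of 50, near the share of all genes that rose, with list medians of 0.060 and 0.072. Of 13 genes of RNA polymerase I and ribosomal RNA synthesis, only Polr1a, the largest subunit of the enzyme, was called, and only between the lines (RKIP-transgenic higher by 0.51, adjusted p = 0.0497). The calls of these assembly factors and of Polr1a were lost with an error estimate that does not follow the signal. Those of Gnl2, Wdr12, Nop58, Tsr1 and Polr1a were also lost with no filter. Of the S6 kinase genes, which the naming rule leaves out, Rps6ka3 (RSK2, a target of the Raf and ERK pathway) read 1228 and 1220 in RKIP-transgenic, 1537 and 1605 in GRK-Inh-transgenic and 1496 and 1513 in control hearts. It fell by 0.29 in RKIP-transgenic hearts (adjusted p = 0.0123), with a mean over its probe sets of the opposite sign (0.060). Rps6ka5 fell by 0.40 in GRK-Inh-transgenic hearts (adjusted p = 0.0493). That call lay close to the threshold and was lost with quantile normalization and with no filter. The calls of Rps6ka3 and Rps6ka5 were both lost with an error estimate that does not follow the signal. Only 3 of the 10 S6 kinase genes listed were tested. Of all genes, 5.51% fell in RKIP-transgenic and 7.27% in GRK-Inh-transgenic hearts.

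On the mitochondrial side the lists were short, and the shares of all genes that rose and fell were 5.32% and 5.51% in RKIP-transgenic and 5.86% and 7.27% in GRK-Inh-transgenic hearts. Of 5 ribosomal proteins with other names 2 rose in GRK-Inh-transgenic hearts, Dap3 by 0.21 (adjusted p = 0.0213) and Ptcd3 by 0.28 (adjusted p = 0.0104); both encode small subunit proteins. Of 12 mitochondrial translation genes, Lrpprc, which stabilises mitochondrial messages, rose in both lines (0.22 and 0.26) and the elongation factor Gfm1 in GRK-Inh-transgenic hearts (0.26). Of 19 mitochondrial ribosome assembly genes, Gtpbp10 rose and Mterf3 fell in RKIP-transgenic hearts (0.53 and -0.30); without RKIP-transgenic array 2 the change of Gtpbp10 was -0.017. Among 12 genes of mitochondrial DNA expression, Ppargc1b, a coactivator of mitochondrial genes, read 1791 and 1777 in RKIP-transgenic, 2303 and 2225 in GRK-Inh-transgenic and 2980 and 2888 in control hearts, with changes of -0.70 ± 0.053 (adjusted p = 1.6e-05) and -0.37 ± 0.053 (adjusted p = 0.00105). The groups stood in the same order as in Mrpl12. Its relative Ppargc1a read 3320 and 3508, 4448 and 4822, and 2820 and 3052, the reverse direction against control, with rises of 0.21 (adjusted p = 0.0429) and 0.65 (adjusted p = 5e-05). Tfb2m, a factor of mitochondrial transcription, rose in both lines (0.38 and 0.24), and Polrmt, the polymerase that the MRPL12 protein has been found to bind, rose in RKIP-transgenic hearts (0.26, adjusted p = 0.0427). The call of Polrmt was lost with quantile normalization and with no filter. Gabpa, which encodes the DNA-binding subunit of the ETS factor GABP, fell by 0.30 in GRK-Inh-transgenic hearts (adjusted p = 0.00993), but the mean over its probe sets was 0.0030. With an error estimate that does not follow the signal, most calls in this paragraph were lost. Those of Ppargc1b in both lines and of Ppargc1a in GRK-Inh-transgenic hearts were kept.

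**Figure D5:**
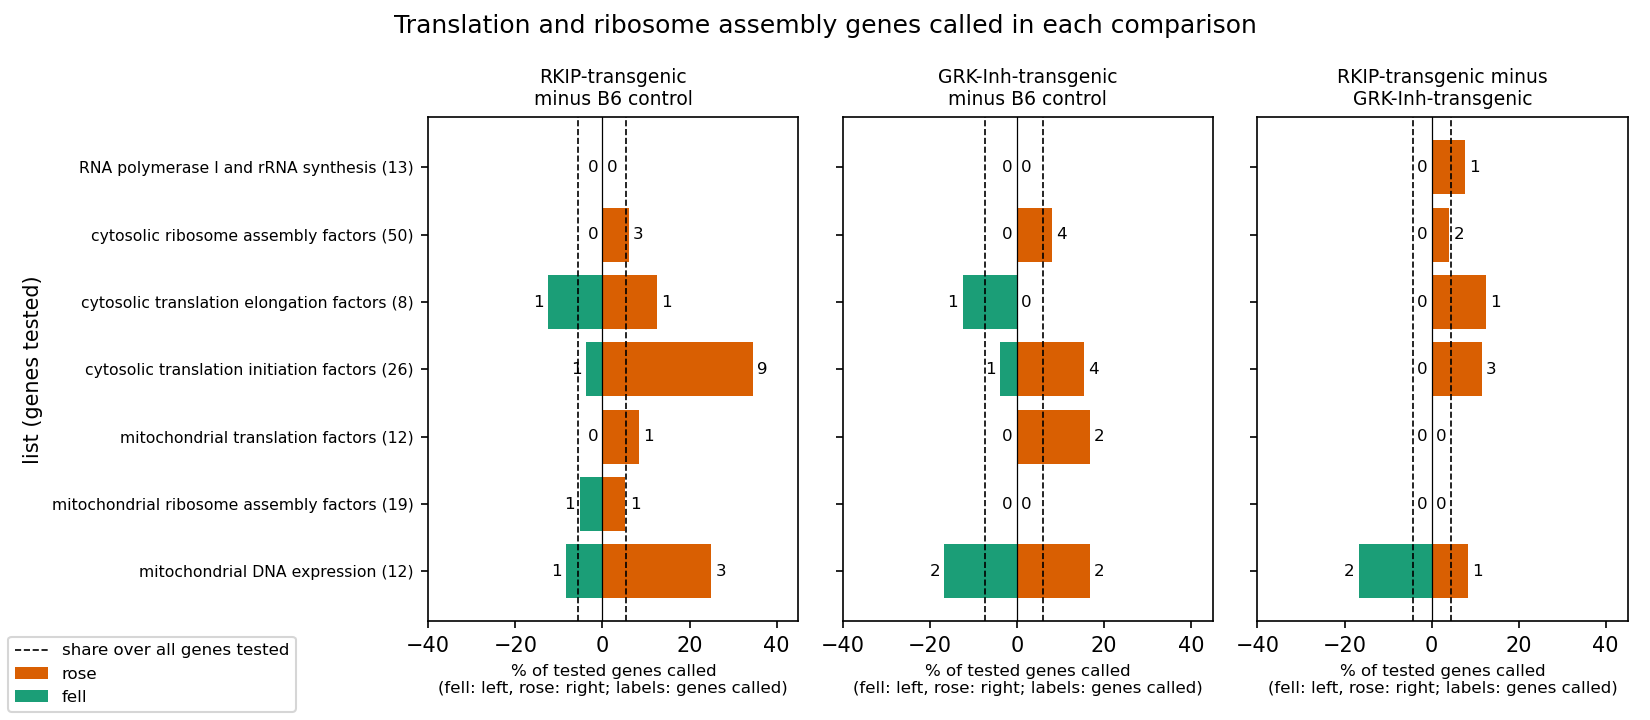
Share of genes called as rising (right, orange) or falling (left, green) in 7 lists of translation, ribosome assembly and mitochondrial expression genes, by comparison, with the number of genes called at each bar and the share over all genes tested as dashed lines. The longest bar is that of the cytosolic initiation factors in RKIP-transgenic against B6 control hearts, where 9 of 26 rose.

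Markers of cell types in the tissue were also counted by list. Of all genes, 5.32% rose and 5.51% fell in RKIP-transgenic hearts, and 5.86% rose and 7.27% fell in GRK-Inh-transgenic hearts. Of 8 fibroblast markers, 6 fell in RKIP-transgenic and 7 in GRK-Inh-transgenic hearts and none rose; their summed signal was 36308 to 36473 and 33725 to 34178, against 48403 to 51057 in control hearts. Of 8 smooth muscle or pericyte markers 5 and 3 fell and, in RKIP-transgenic hearts, 1 rose (summed signal 29724 to 29998 and 28971 to 29299, against 33336 to 34692). Of 8 endothelial markers 2 and 1 fell (5632 to 5658 and 6601 to 6685, against 6748 to 6756), and of 8 macrophage markers 1 and 3 fell (11563 to 11921 and 10336 to 10422, against 12118 to 12563). The median log2 fold changes were -0.21 and 0.0087 for the endothelial and -0.069 and -0.16 for the macrophage markers. The 8 cardiomyocyte markers were bright in all groups, the lowest reading being 9416, and 1 fell in RKIP-transgenic hearts (232798 to 234011, 227221 to 228362 and 233207 to 243134). Of 8 lymphocyte markers only 2 were bright enough to test; both rose in GRK-Inh-transgenic and 1 fell in RKIP-transgenic hearts (summed signal 1150 to 1248 and 232 to 310, against 316 to 379). Of 3 white adipocyte markers tested, 2 fell in RKIP-transgenic hearts (1170 to 1204, against 3604 to 3777 in control and 3560 to 4195 in GRK-Inh-transgenic hearts). The 3 erythroid markers were too dim to test, and no marker of any list read 0. The ratio of 3' to 5' signal of the actin control probes, a sign of RNA or labelling quality, was 2.92 and 2.96, 3.03 and 3.0, and 3.25 and 3.11 in RKIP-transgenic, GRK-Inh-transgenic and control hearts. The part of these differences in the changes of ribosomal protein messages was not tested.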

How the data were processed

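RNA of 6 heart samples was measured on Affymetrix arrays. The deposited values are intensities on a linear scale, 1 per probe set, which the authors made with GCOS per the submitters' processing notes (no version named); every array had the same 2% trimmed mean, as checked on the values. No step that would change this scaling was added. The deposited table holds 45101 probe sets, of which 34945 carried 1 symbol, 932 several and 9160 none. An offset of 50 was added and log2 taken. Each gene was represented by its brightest single-symbol probe set, and genes whose mean was under the median of all probe sets other than controls (log2 6.65) were left out. limma 3.58.1 in R 4.3.3 was fitted to all 6 arrays with a variance trend (3 residual and 7.6 prior degrees of freedom), and p-values were adjusted by Benjamini-Hochberg over 11254 genes. The fit was tested on simulated data with known changes. Motifs and figures were made in Python 3.11.15 with matplotlib 3.10.9.

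Ribosomal protein genes, lists and tests were chosen with earlier results of these data known. Named were, per comparison and set, up to 6 called genes of largest rise and 6 of largest fall among those whose arrays do not overlap, the 3 brightest and 3 dimmest, paralog groups and up to 4 called genes of each list; Eif4b, Eif4a2, Eif3e, Rplp0, Rplp2 and Rpsa were named after their values were seen. Alternatives changed the scaling, filter, probe sets, offset, variance model, threshold, arrays and replicate block.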

Additional observations from a re-analysis of the deposited data

Results flagged for a closer look

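A difference between the lines was flagged for 11 members because the direct test of RKIP-transgenic against GRK-Inh-transgenic hearts, which also tests whether their changes from the shared B6 control differ, passed at an adjusted p under 0.05 in limma. In log2 units, RKIP-transgenic hearts were lower for Mrps22 (-0.35), Rpl7l1 (-0.33), Mrpl45 (-0.23), Mrpl12 (-0.22), Rpl8 (-0.22), Mrps6 (-0.22), Mrpl28 (-0.21), Mrpl16 (-0.19) and Mrpl41 (-0.18), and higher for Mrpl11 (0.25) and Mrpl24 (0.18). The share of all genes that passed this test was 8.82%.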

How the results depend on the processing

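All 37 calls of members in the text were lost when the variance was estimated without its trend with signal, where all 6 counts were 0. Of these calls 0 were lost with an offset of 200, a robust fit or a filter set at the 75th percentile, 1 with an offset of 16, 5 with only probe sets without shared-probe suffixes (24 of the 37 had one), 7 with quantile normalization or only the compared arrays, 9 with all probe sets one by one, 13 with arrays shifted to one median, 16 with the mean over probe sets or with no filter, and 19 to 24 without 1 array. Without 1 array, where the lone array is assumed to vary like the other groups, cytosolic counts were 1 to 5 in RKIP-transgenic against control, 0 to 7 in GRK-Inh-transgenic against control and 0 to 2 between the lines, and mitochondrial counts 3 to 7, 0 to 3 and 1 to 6. In the same order of comparisons, an adjusted p under 0.01 gave cytosolic counts of 1, 1 and 0 and mitochondrial counts of 3, 0 and 2, and one under 0.10 gave mitochondrial counts of 13 and 7 against control. The cytosolic count in RKIP-transgenic against control was 3 with no filter, 10 over all probe sets and 1 without shared-probe suffixes. In GRK-Inh-transgenic against control it was 4 with no filter or arrays shifted to one median, 16 over all probe sets and 3 without shared-probe suffixes. Between the lines it was 1 with the mean over probe sets or an offset of 16 and 0 without shared-probe suffixes. The mitochondrial count was 4, 2 and 5 with the mean over probe sets; with no filter it was 1 in GRK-Inh-transgenic against control and 5 between the lines, and with arrays shifted to one median it was 1 in GRK-Inh-transgenic against control.

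The cytosolic median stayed below 0 against control in both lines in all settings run; in GRK-Inh-transgenic hearts it was -0.019 with quantile normalization and -0.013 with arrays shifted to one median. That shift moved the mitochondrial median to 0.0087 in GRK-Inh-transgenic against control, and the medians between the lines to -0.048 (cytosolic) and -0.041 (mitochondrial). Without shared-probe suffixes the mitochondrial median in RKIP-transgenic against control was -0.057 and the cytosolic median between the lines -0.053. Values that changed sign were Rps4x (0.025, GRK-Inh-transgenic against control), Rps6ka3 (0.060, RKIP-transgenic against control) and Gabpa (0.0030, GRK-Inh-transgenic against control) with the mean over probe sets, which for Rps4x takes in a probe set with a mean signal of 12.8; Pabpc1 (0.035, RKIP-transgenic against control) and Eif5 (-0.0028, GRK-Inh-transgenic against control) without shared-probe suffixes; and Gtpbp10 (-0.017, RKIP-transgenic against control) without RKIP-transgenic array 2, with values up to 0.67 when another array was left out. Where no value shows it, the cause was not tested. Arrays with the same replicate number did not deviate together (correlations of 0.0258, -0.0298 and -0.035 over 11254 genes), so the numbers do not pair the samples; with a replicate block 8 of the 37 calls were lost, and the cytosolic count between the lines was 1. With 2 arrays a group, the number of arrays limits the precision.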
